A study of Drosophila melanogaster with 21 samples.

Results

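The replication-dependent histone genes of Drosophila melanogaster were taken as all genes whose FlyBase symbol begins with His1:, His2A:, His2B:, His3: or His4:. The rule gave 111 of the 17869 FlyBase genes in a table of 23932 features, made up of 23 His1, 20 His2A, 23 His2B, 23 His3 and 22 His4 genes. Total RNA from embryos was counted in 4 genotypes with 3 replicates each. These were Top3b26, an allele of the topoisomerase gene Top3beta; Y332F, whose name denotes phenylalanine in place of a tyrosine in that protein; delRGG, labelled as lacking its RGG part; and wild type. Top3beta itself was at 21.1 to 23.3 CPM (counts scaled to library size and composition) in Top3b26, 103 to 140 CPM in Y332F, 125 to 141 CPM in delRGG and 94.5 to 125 CPM in wild type. The labels give no embryo age, number of embryos or genetic background. They do not say that replicates came from separate collections, so p-values measure only the spread between these samples, which may be technical.

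Replication-dependent histones are the proteins that wrap newly copied DNA. His2A, His2B, His3 and His4 form the nucleosome core, and His1 is the linker histone that binds between cores. In this fly the genes lie in one tandem array of repeated units, and most copies of a type are nearly identical. Their mRNAs are made in S phase and end in a stem-loop bound by the stem-loop binding protein Slbp, instead of a poly(A) tail. The U7 small nuclear ribonucleoprotein guides the cut that forms this end. Early embryos depend on maternally supplied histone mRNA and protein during rapid nuclear divisions, and histone mRNA declines in cells that stop dividing. Histones deposited outside replication, such as His3.3B and His2Av, come from single genes elsewhere with ordinary poly(A) mRNA.

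Library totals ran from 22400118 to 31125584 counts, and the members together took 2798 to 7803 counts of a library. As a share of the library total, they made up 263 ± 14.4 unscaled CPM in Top3b26, 249 ± 19.9 in Y332F, 229 ± 73.3 in delRGG and 142 ± 15.7 in wild type (SD, n = 3 each). A floor of 3 counts, which covers counting error only, came to 0.0964 to 0.134 unscaled CPM. Replicates of one genotype differed well beyond sampling noise, with a chi-square per degree of freedom of 12.5 to 126, so none was taken for another library deposited again. This does not show that they came from separate collections. Column names begin with D for every mutant library and with C for every wild-type library. Should the letters stand for separate library preparations, preparation and genotype cannot be told apart.

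All 111 genes lay on chromosome arm 2L, and each had another histone gene or histone pseudogene as its neighbour on both sides in the RefSeq gene order. Small noncoding RNA genes annotated inside the His2A copies were left out of that order. Counts were spread very unevenly over this array. Of the copies, 56 had 0 counts in all 12 libraries, 21 had between 1 and 10 counts in all libraries together, and 34 had more. The 16 copies that passed the filter on low counts held 98.8% of all member counts, and these were 3 His1, 3 His2A, 6 His2B and 4 His4 genes. The other 95 copies, with every His3 copy among them, were not tested.

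The 3 copies with the most counts were His2A:CG33865 with 71.6% of all member counts, His2B:CG33868 and His2B:CG33872, which together held 87.6%. His2A:CG33865 and His2B:CG33868 stood at places 110 and 109 of the 111 genes in array order, and His1:CG33801, also tested, stood at place 1. Whether reads that fit several copies were kept is not given in the sources used here. A copy at 0 is therefore listed at 0 and is not shown to be silent, and values of single copies are uncertain where reads could be split. If such reads were dropped, the sums per type lack them too. The sums then rest on the few copies with counts and need not rank the types. Another 20 small noncoding RNA genes are annotated inside the His2A copies, and all were at 0 in every library.

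**Figure D1:**
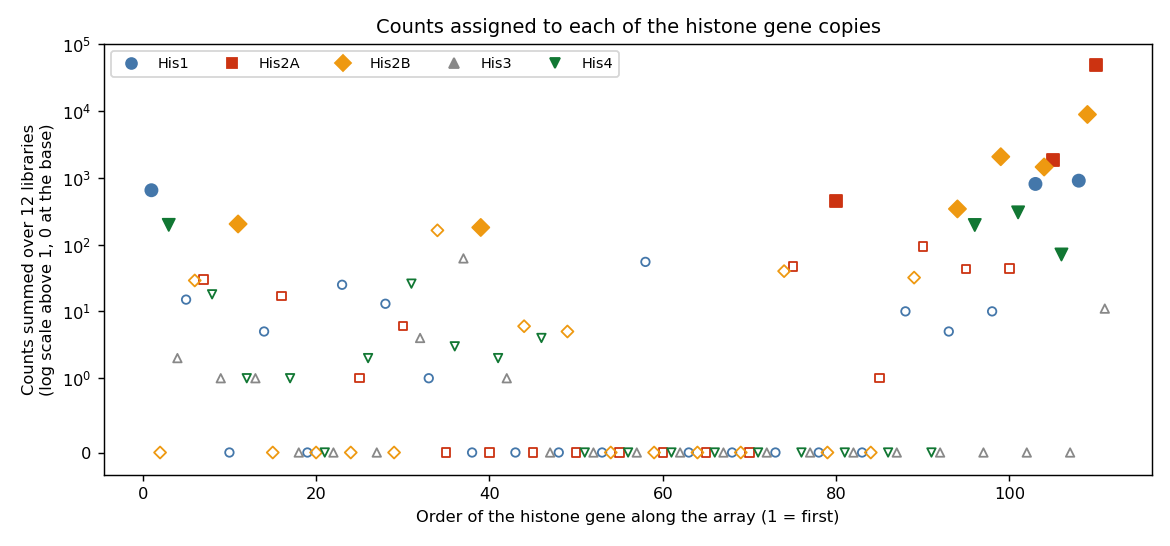
Counts of each histone gene copy summed over the 12 libraries (vertical axis, logarithmic above 1 with 0 at the base) by its order along the array (horizontal axis). Colour and shape give the type, and filled points are the 16 copies that passed the filter on low counts; counts gather at the last places of the array, and 56 copies sit at 0.

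By counts assigned to its copies, His2A, a core histone, was the most counted type and higher in Top3b26 and Y332F than in wild type. Its copies summed to 220, 221 and 257 CPM in Top3b26, to 188, 226 and 158 CPM in Y332F, to 102, 176 and 155 CPM in delRGG and to 116, 91.5 and 97.7 CPM in wild type. Every Top3b26 and Y332F library lay above every wild-type library, while delRGG replicate 1 lay among the wild-type libraries. Tested as 1 feature per type, in a table of which 57.2% of features were called in Top3b26, 43.5% in Y332F and 5.87% in delRGG, the His2A sum rose 2.29-fold in Top3b26 (log2 fold change 1.19, SE 0.19, edgeR adjusted p = 0.00123) and 1.87-fold in Y332F (log2 fold change 0.90, SE 0.19, edgeR adjusted p = 0.00793). In delRGG the His2A sum differed from wild type by 0.50 on the log2 scale (SE 0.19, edgeR adjusted p = 0.158), and it passed the test without delRGG replicate 1 (0.71, edgeR adjusted p = 0.0226). These are bulk samples, in which a change in the number of cells of a type and a change in RNA per cell cannot be told apart.

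His1, the linker histone, was higher in every library of all 3 mutants than in any wild-type library. Its copies summed to 8.30, 9.48 and 8.91 CPM in Top3b26, to 11.2, 9.41 and 9.43 CPM in Y332F, to 6.92, 12.4 and 9.21 CPM in delRGG and to 5.40, 4.03 and 2.76 CPM in wild type. The higher sums in Y332F and delRGG lay mostly in His1:CG33801 and His1:CG33861. His1:CG33864, the main copy in wild type, averaged 2.90 CPM in Y332F and 2.54 CPM in delRGG against 2.59 CPM in wild type. The His1 sum rose 2.19-fold in Top3b26 (log2 fold change 1.13, SE 0.28, edgeR adjusted p = 0.00699), 2.47-fold in Y332F (1.30, SE 0.28, edgeR adjusted p = 0.00892) and 2.34-fold in delRGG (1.23, SE 0.28, edgeR adjusted p = 0.0288). The delRGG call was lost when the compared genotypes were fitted alone (1.28, edgeR adjusted p = 0.246), without delRGG replicate 2 (0.99, edgeR adjusted p = 0.0911), and without wild-type replicate 2 (1.27, edgeR adjusted p = 0.0799) or 3 (1.01, edgeR adjusted p = 0.0887).

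His2B did not follow His2A in Top3b26. Its sum was 18.8, 40.4 and 17.3 CPM in Top3b26, 44.5, 44.3 and 65.4 CPM in Y332F, 55.1, 108 and 46.1 CPM in delRGG and 19.2, 19.7 and 40.4 CPM in wild type. The Top3b26 and wild-type ranges overlapped, whereas all Y332F and delRGG libraries lay above all wild-type libraries. The His2B sum differed from wild type by -0.06 in Top3b26 (SE 0.42, edgeR adjusted p = 0.91), by 0.96 in Y332F (SE 0.42, edgeR adjusted p = 0.0854) and by 1.40 in delRGG (SE 0.43, edgeR adjusted p = 0.0854), none of them called.

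The His4 sum was 2.93, 4.74 and 2.67 CPM in Top3b26, 2.23, 2.47 and 2.08 CPM in Y332F, 1.58, 1.64 and 0.866 CPM in delRGG and 6.66, 3.27 and 1.91 CPM in wild type. All delRGG libraries lay below all wild-type libraries, and the Top3b26 and Y332F ranges fell within the wild-type range. None of the 3 differences from wild type passed the test, at -0.20 in Top3b26 (SE 0.45, edgeR adjusted p = 0.722), -0.80 in Y332F (SE 0.46, edgeR adjusted p = 0.174) and -1.53 in delRGG (SE 0.47, edgeR adjusted p = 0.0863). The 23 His3 copies held only 82 counts in all libraries, 5 to 9 in each, and their sum did not pass the filter. Of these, His3:CG33821 had 62 counts and His3:CG33866 had 11, while 16 His3 copies were at 0. No difference in His3 could be tested on so few counts, and why His3 drew so few was not tested.

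**Figure D2:**
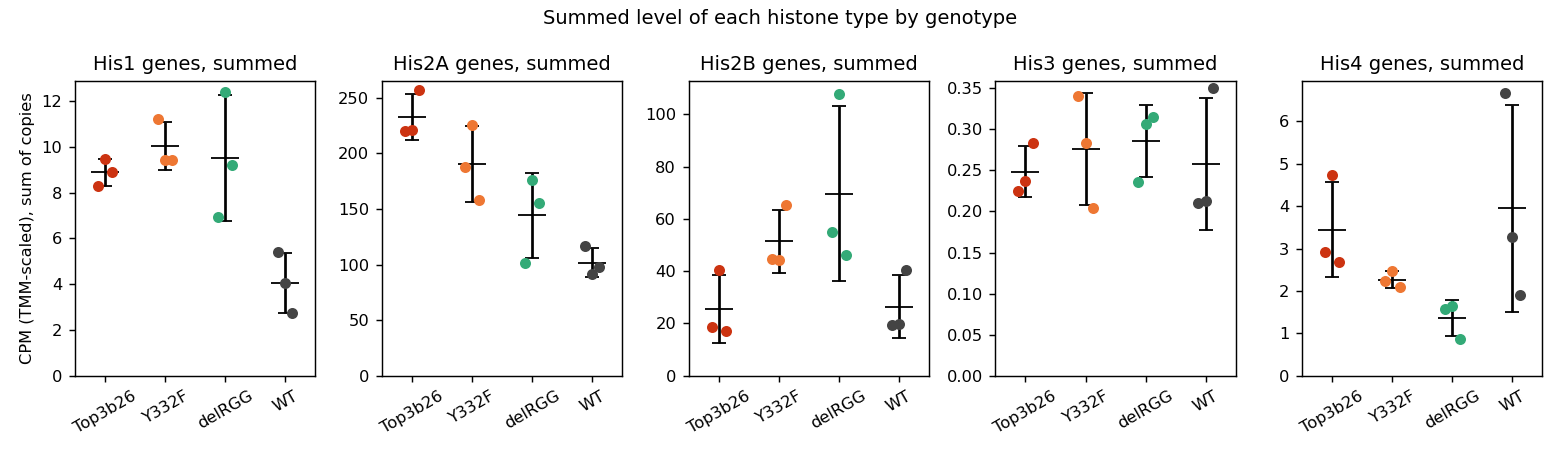
Summed CPM of all copies of each histone type (vertical axes, starting at 0) in each library by genotype; points are libraries, and the bar and whiskers are the mean and SD of 3 replicates. His2A is highest in Top3b26 at 233 ± 20.7 CPM against 102 ± 12.9 CPM in wild type, His1 is raised in all 3 mutants, and His3 stays near the floor.

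Genes of late embryonic tissues differed between the same libraries. The list of 15 late differentiation markers, such as the muscle myosin gene Mhc, the neuronal gene elav and cuticle genes, summed to 113 to 313 CPM in Top3b26, 267 to 484 CPM in Y332F, 268 to 2909 CPM in delRGG and 1825 to 6249 CPM in wild type. Of the 14 tested, 14 were lower in Top3b26 and 14 in Y332F, and 0 were called in delRGG against wild type by edgeR (2 at an unadjusted p under 0.05, and 0 by DESeq2). Over all features, 33.7% were called lower in Top3b26, 28.2% in Y332F and 2.70% in delRGG. Within delRGG, replicates 1, 2 and 3 had late marker sums of 2909, 943 and 268 CPM beside His2A sums of 102, 176 and 155 CPM. The 14 early patterning markers, which include the maternal genes bcd and nanos and the zygotic genes sna and kni, were all tested, and 3 rose and 3 fell in Top3b26, 4 rose and 1 fell in Y332F, and 0 were called in delRGG by edgeR (1 at an unadjusted p under 0.05, and 0 by DESeq2). In either direction, 57.1% of all features were called in Top3b26, 43.5% in Y332F and 5.87% in delRGG (23.5%, 15.3% and 3.17% higher). The median log2 fold change of the early markers was -0.46 in Top3b26, 0.20 in Y332F and 0.15 in delRGG. In Top3b26, bcd (0.38, edgeR adjusted p = 0.00369), nanos (0.56, edgeR adjusted p = 0.00826) and gcl (0.30, edgeR adjusted p = 0.0192) rose, while sna (-1.08, edgeR adjusted p = 0.0212), kni (-0.96, edgeR adjusted p = 0.0336) and hry (-2.30, edgeR adjusted p = 0.00152) fell. The list summed to 3368 to 3778 CPM in Top3b26, 3471 to 3613 CPM in Y332F, 2960 to 3519 CPM in delRGG and 2654 to 2789 CPM in wild type, a sum in which nanos was the most counted gene. Yolk and eggshell genes of adult females reached a sum of 13.5 CPM in Top3b26 replicate 3 and 35.0 CPM in Y332F replicate 3, and 0.190 to 0.934 CPM in the other 10 libraries, with Cp15 and Cp16 at 0 throughout. The part of these cell types, or of embryo age, in the histone differences was not tested. With no embryo age in the labels, age and genotype cannot be told apart, here or for the other gene lists.

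Tested singly against wild type, few of the 16 copies were called. In Top3b26, 4 copies rose and 0 fell, against 57.1% of all 10238 features called in either direction (23.5% higher and 33.7% lower). In Y332F, 2 rose and 1 fell, where 43.5% of all features were called (15.3% higher and 28.2% lower). In delRGG, 2 rose and 0 fell, where 5.87% of all features were called (3.17% higher and 2.70% lower). The libraries of mutant and wild type did not overlap for 5 copies in Top3b26, 4 in Y332F and 4 in delRGG, where this held for 71.0%, 57.2% and 24.6% of all features. The 16 copies split into 9 above and 7 below 0 in Top3b26, 14 and 2 in Y332F, and 9 and 7 in delRGG. The median log2 fold change of the 16 copies was 0.34 in Top3b26, 0.61 in Y332F and 0.41 in delRGG, beside -0.04 over all features in each of the 3 comparisons. All 3 comparisons use the same wild-type samples, and these medians cover only copies with enough counts to pass the filter. Some copies low in wild type reached it mainly through mutant libraries. Such were His1:CG33801, with 3, 3 and 10 counts in wild type, and His4:CG33869, with 0, 6 and 1. The medians and the splits above and below 0 may lean upward for this reason. Copies may also share reads and are not replicates.

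His2A:CG33865 made up most of the His2A sum, with 88.9% to 98.4% of the type's counts in every library. It stood at 217, 213 and 250 CPM in Top3b26, at 175, 209 and 151 CPM in Y332F, at 97.8, 168 and 144 CPM in delRGG and at 109, 81.4 and 91.8 CPM in wild type. On the log2 scale it rose by 1.27 in Top3b26 (SE 0.19, edgeR adjusted p = 0.000898) and by 0.92 in Y332F (SE 0.19, edgeR adjusted p = 0.00716), and in delRGG the difference was 0.54 (SE 0.19, edgeR adjusted p = 0.127). The next His2A copies, His2A:CG33862 and His2A:CG33847, averaged 6.12 and 1.46 CPM over the 12 libraries and were called in none of the 3 comparisons.

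His1:CG33801, the first gene of the array, showed the largest rise of the 16 tested copies in Y332F and delRGG. It had 22, 17 and 43 counts in Top3b26, 80, 82 and 116 counts in Y332F, 68, 97 and 108 counts in delRGG, and 3, 3 and 10 counts in wild type. No mutant library overlapped wild type, where 2 of the 3 libraries were at the floor of 3 counts, so the size of the fold rests on few counts. The log2 fold change was 2.30 in Top3b26 (SE 0.55, edgeR adjusted p = 0.0058), 4.06 in Y332F (SE 0.57, edgeR adjusted p = 0.00124) and 3.95 in delRGG (SE 0.57, edgeR adjusted p = 0.00259). All 3 calls were kept under every alternative run.

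The other tested His1 copies moved less. His1:CG33861 stood at 3.28, 4.03 and 3.40 CPM in Top3b26, 4.69, 2.51 and 1.27 CPM in Y332F, 2.29, 5.05 and 2.01 CPM in delRGG and 1.77, 0.722 and 0.311 CPM in wild type. It rose in Top3b26 (1.93, SE 0.65, edgeR adjusted p = 0.0255), a call that was lost without any one Top3b26 library, with edgeR adjusted p of 0.0506, 0.0642 and 0.0547 for replicates 1, 2 and 3, and without wild-type replicate 2 (0.0639) or 3 (0.074). The difference was 1.59 in Y332F (SE 0.65, edgeR adjusted p = 0.0653) and 1.73 in delRGG (SE 0.65, edgeR adjusted p = 0.156), neither called. All delRGG libraries of His1:CG33861 lay above all wild-type libraries. With the replicate number as a block, His1:CG33861 was called in Y332F (1.64, edgeR adjusted p = 0.0401). His1:CG33864 averaged 3.80 ± 0.496 CPM in Top3b26, 2.90 ± 0.243 in Y332F, 2.54 ± 0.531 in delRGG and 2.59 ± 0.793 in wild type (SD, n = 3 each) and was not called. This copy made up 42.8 ± 5.22% of His1 counts in Top3b26, 29.0 ± 0.802% in Y332F and 27.1 ± 2.66% in delRGG, against 64.1 ± 9.37% in wild type (SD, n = 3 each).

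His2B:CG33868, the neighbour of His2A:CG33865 near the end of the array, followed another order of genotypes. It stood at 10.2, 9.48 and 12.3 CPM in Top3b26, at 28.0, 22.9 and 32.9 CPM in Y332F, at 43.7, 99.9 and 34.4 CPM in delRGG and at 12.2, 12.0 and 20.6 CPM in wild type. All Y332F and delRGG libraries were above all wild-type libraries, and delRGG replicate 2 was the highest library. On the log2 scale it rose by 1.99 in delRGG (SE 0.37, edgeR adjusted p = 0.00976), a call lost with the compared genotypes fitted alone (2.07, edgeR adjusted p = 0.11). The difference was 0.90 in Y332F (SE 0.36, edgeR adjusted p = 0.0624) and -0.48 in Top3b26 (SE 0.36, edgeR adjusted p = 0.268).

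Other His2B copies varied widely between replicates of one genotype. His2B:CG33870 had 40, 81 and 34 counts in Top3b26, 52, 18 and 582 counts in Y332F, 15, 32 and 29 counts in delRGG, and 88, 21 and 453 counts in wild type. Replicate 3 of both Y332F and wild type stood far above the other libraries of its genotype, and no comparison with wild type was called. His2B:CG33872 had 117, 535 and 41 counts in Top3b26, 324, 201 and 184 counts in Y332F, 289, 127 and 132 counts in delRGG, and 20, 83 and 6 counts in wild type. It was called higher in Top3b26 (2.74, SE 1.03, edgeR adjusted p = 0.0405) although the groups overlapped. That call was lost without Top3b26 replicate 2 (0.86, edgeR adjusted p = 0.403), without wild-type replicate 1 (2.47, edgeR adjusted p = 0.108) or 3 (2.22, edgeR adjusted p = 0.101), with the compared genotypes alone (2.64, edgeR adjusted p = 0.121) and with total-count normalization (2.61, edgeR adjusted p = 0.0524). All Y332F and delRGG libraries lay above all wild-type libraries for His2B:CG33872. It was not called in Y332F (2.60, SE 1.03, edgeR adjusted p = 0.0597) or delRGG (2.11, SE 1.01, edgeR adjusted p = 0.245). With the replicate number as a block it was called in Y332F (3.34, edgeR adjusted p = 0.0217).

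**Figure D3:**
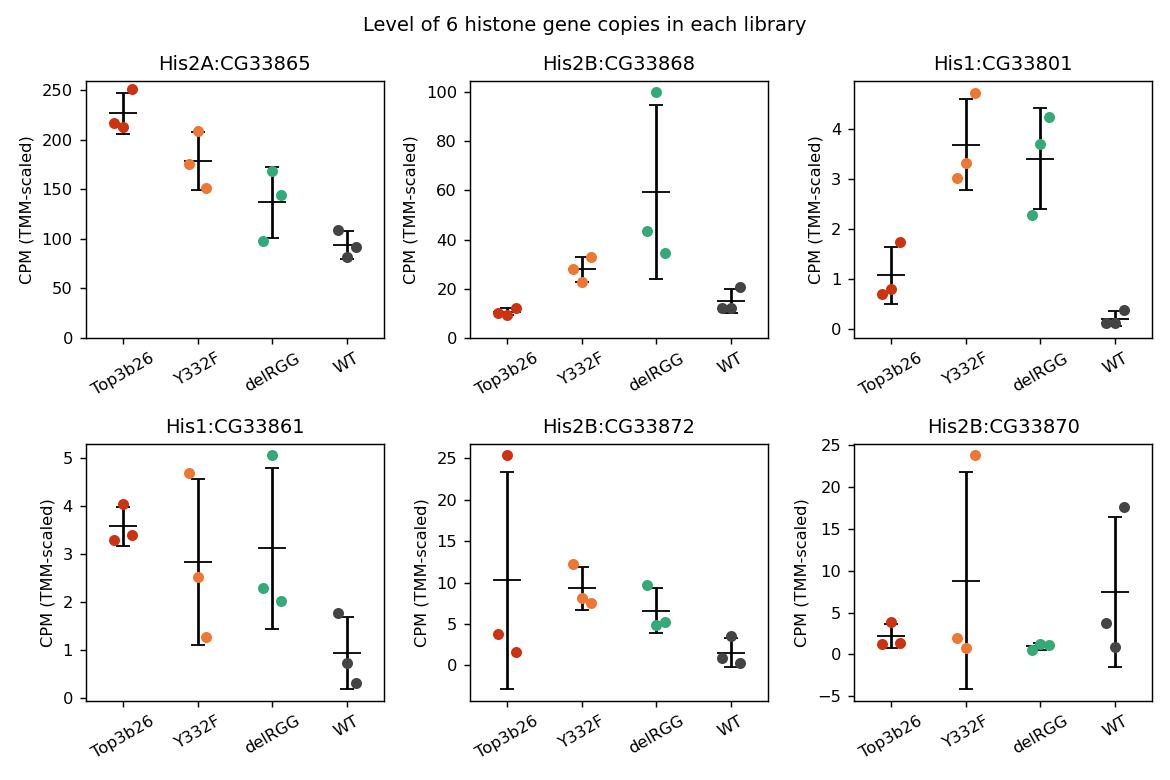
CPM of 6 histone gene copies (vertical axes) in each library by genotype; points are libraries, and the bar and whiskers are the mean and SD of 3 replicates. His2A:CG33865 is highest in Top3b26, His2B:CG33868 is highest in delRGG, and His1:CG33801 is lowest in wild type. Single libraries stand far above the others of their genotype for His2B:CG33872 in Top3b26 and for His2B:CG33870 in Y332F and wild type.

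The His4 copies were counted least of the tested types. His4:CG33871 had 37, 62 and 37 counts in Top3b26, 27, 28 and 15 in Y332F, 17, 17 and 8 in delRGG, and 8, 25 and 22 in wild type, and it was not called against wild type. In Top3b26 its difference was 1.31 (SE 0.53, edgeR adjusted p = 0.0523), and all Top3b26 libraries lay above all wild-type libraries. With the replicate number as a block it was called there (1.27, edgeR adjusted p = 0.042). The differences were 0.29 in Y332F and -0.55 in delRGG. His4:CG33873 was also not called, with 0 to 27 counts per library. His4:CG33909 had 10, 24 and 15 counts in Top3b26, 1, 3 and 2 in Y332F, 4, 1 and 3 in delRGG, and 123, 8 and 3 in wild type. It was called lower in Y332F (-4.47, SE 1.30, edgeR adjusted p = 0.0199), but the groups met at 3 counts, and the high wild-type mean came from replicate 1. Without that library the value was -1.44 (edgeR adjusted p = 0.199). The call was also lost with the replicate number as a block (-3.74, edgeR adjusted p = 0.0633) and without Y332F replicate 1 (-4.14, edgeR adjusted p = 0.0701) or 2 (-4.85, edgeR adjusted p = 0.0601).

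**Figure D4:**
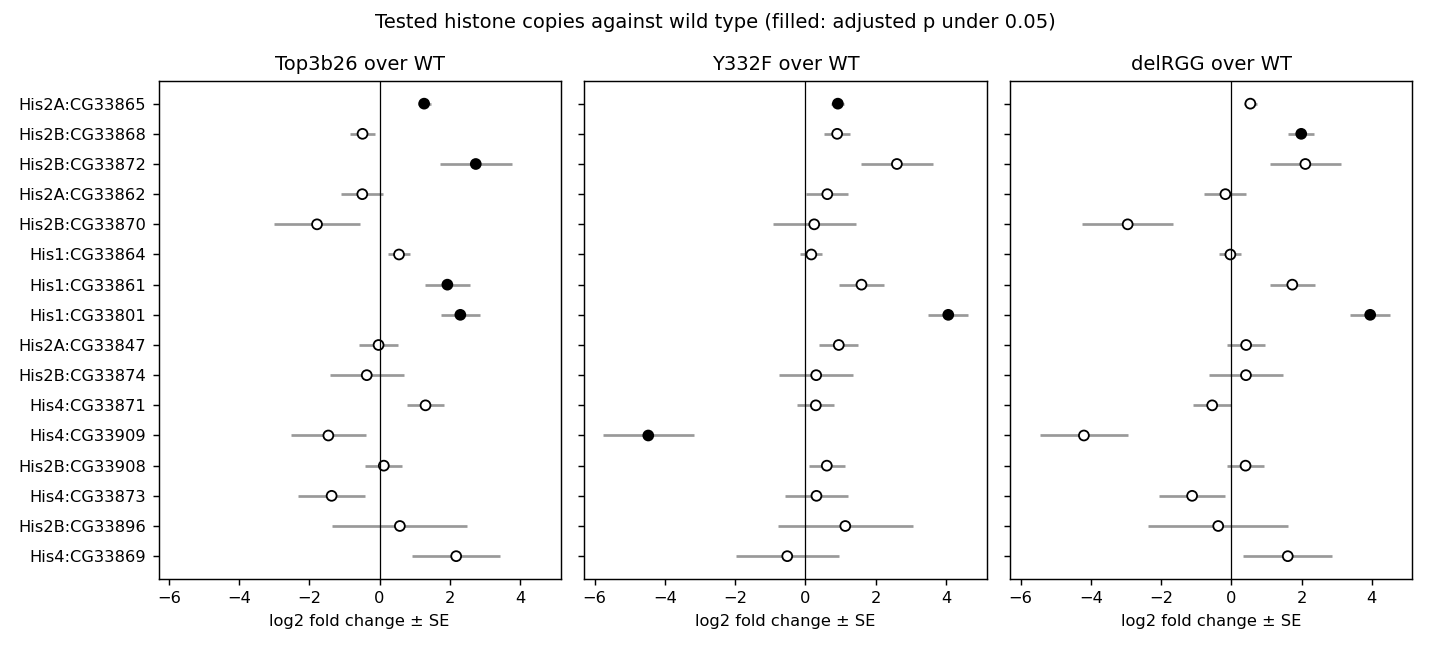
Log2 fold change ± SE (horizontal axes) of the 16 tested histone copies in each mutant against wild type, ordered from the highest mean CPM at the top to the lowest at the bottom. Filled points passed an adjusted p of 0.05: 4 copies in Top3b26, 3 in Y332F and 2 in delRGG, with His1:CG33801 filled in all panels.

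Direct comparisons between the mutants were made to see whether the alleles differed from one another. Between delRGG and Top3b26, 2 copies were higher and 2 lower in delRGG, where 28.3% of all features were called (17.3% higher and 10.9% lower) and 41.7% had groups that did not overlap, as had 7 of the 16 copies. His2B:CG33868 was higher in delRGG (2.47, SE 0.38, edgeR adjusted p = 0.00174) and kept this call under every alternative run. The other calls there were of His1:CG33801 (1.65, SE 0.50, edgeR adjusted p = 0.0336), His2A:CG33865 (-0.73, SE 0.19, edgeR adjusted p = 0.0198) and His4:CG33871 (-1.85, SE 0.54, edgeR adjusted p = 0.0297). Each of these 3 was lost without Top3b26 replicate 2, with edgeR adjusted p of 0.112, 0.0588 and 0.114, and with the compared genotypes alone, with edgeR adjusted p of 0.0648, 0.055 and 0.0608. His1:CG33801 was also lost without Top3b26 replicate 1 (0.0852) or delRGG replicate 2 (0.0761). His2A:CG33865 was also lost without Top3b26 replicate 3 (0.092), as was His4:CG33871 (0.0663), which was lost too without delRGG replicate 1 (0.0802) or 2 (0.0535). With the type sums, His2A was lower in delRGG (-0.69, SE 0.19, edgeR adjusted p = 0.0245) and His2B higher (1.46, SE 0.43, edgeR adjusted p = 0.0308). With the compared genotypes alone these gave edgeR adjusted p of 0.0651 and 0.066. The His2A call was also lost without Top3b26 replicate 2 (0.0709) or 3 (0.105) or delRGG replicate 1 (0.0619), each an edgeR adjusted p. The His2B call was lost without Top3b26 replicate 1 (0.074) or 3 (0.103) or delRGG replicate 1 (0.0502) or 2 (0.107) in the same test.

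Between Y332F and Top3b26, 1 copy was called, where 7.27% of all features were (3.15% higher and 4.11% lower) and 30.8% had groups that did not overlap, as had 8 of the 16 copies. The called copy was His2B:CG33868, higher in Y332F (1.39, SE 0.37, edgeR adjusted p = 0.043). With the replicate number as a block, His2B:CG33868 was no longer called (edgeR adjusted p = 0.0687) and His1:CG33801 was (1.85, edgeR adjusted p = 0.0119). The call of His2B:CG33868 was lost in each of the 6 fits that left out 1 library of these genotypes, with edgeR adjusted p of 0.0671 to 0.173, and with total-count normalization (0.0504). Between delRGG and Y332F, 0 of the 16 copies were called by edgeR, where 2.46% of all features were (1.29% higher and 1.17% lower) and 20.5% had groups that did not overlap, as had 2 of the 16 copies. At an unadjusted p under 0.05, edgeR gave 2 copies, and DESeq2 called 2, His2B:CG33870 and His2B:CG33868. No type sum was called between Y332F and either other mutant by edgeR.

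Spread between replicates was wider for these copies than for most features. The range of log2(CPM + 0.5) within a genotype, averaged over the 4 genotypes, had a median of 0.81 over the 16 copies and 0.32 over all 10238 tested features, and all 16 copies exceeded the latter value. It was 2.52 for His2B:CG33870, 1.99 for His2B:CG33896 and 1.91 for His2B:CG33872, against 0.48 for His2A:CG33865 and 0.44 for His1:CG33864. Several of these copies had few counts, and the part of depth in this spread was not tested.

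The pattern of the summed members over the 12 libraries was set beside that of 6358 other features with a mean of at least 10 CPM. The features most like it by Pearson's r of log2(CPM + 0.5) were Spt3 (r = 0.96), hyx (r = 0.93), Kdm4A (r = 0.93), CSN1b (r = 0.93) and CG10435 (r = 0.93). Spt3 averaged 17.9 CPM in Top3b26, 14.9 in Y332F and 14.3 in delRGG, against 9.17 in wild type. These correlations share libraries and genotype differences and are given as a description. His2A:CG33865 held 71.6% of all member counts, so the summed pattern mostly follows that copy, and His2B and His4 followed other orders of genotypes.

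Of the 6 replacement histone genes, 2 rose and 0 fell in Top3b26, 2 rose and 1 fell in Y332F, and 1 rose and 0 fell in delRGG, where 57.1%, 43.5% and 5.87% of all features were called in either direction. Their median log2 fold changes were 0.16, 0.17 and 0.13. The rise found in all 3 mutants was that of cid, which encodes the centromeric His3 variant. It stood at 77.1, 74.5 and 72.7 CPM in Top3b26, 85.9, 79.4 and 62.7 CPM in Y332F, 61.6, 58.6 and 75.3 CPM in delRGG and 37.7, 44.1 and 40.3 CPM in wild type. The groups did not overlap, and the log2 fold changes were 0.88 (SE 0.13, edgeR adjusted p = 0.000787), 0.90 (SE 0.13, edgeR adjusted p = 0.00125) and 0.68 (SE 0.13, edgeR adjusted p = 0.00988) in Top3b26, Y332F and delRGG.

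BigH1, the embryonic linker histone that precedes His1, rose in Top3b26 (0.52, SE 0.17, edgeR adjusted p = 0.0221) and Y332F (0.47, SE 0.17, edgeR adjusted p = 0.0433), and differed by 0.27 in delRGG (edgeR adjusted p = 0.34). His3.3B stood at 580, 590 and 691 CPM in Y332F against 728, 782 and 962 CPM in wild type, and fell by 0.41 on the log2 scale (SE 0.12, edgeR adjusted p = 0.0193). His3.3B was not called in Top3b26 or delRGG. His3.3A encodes the same kind of replacement histone. His3.3A, His2Av and the replacement gene His4r were called in none of the 3 comparisons, with log2 differences from -0.23 for His4r to 0.26 for His2Av, both in Top3b26.

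Of the genes for transcription and processing of histone mRNA, 13 of 14 were tested. In Top3b26 5 rose and 0 fell, in Y332F 3 rose and 0 fell, and in delRGG 0 were called by edgeR (3 at an unadjusted p under 0.05, and 3 by DESeq2). Over all features, 57.1% were called in Top3b26, 43.5% in Y332F and 5.87% in delRGG (23.5%, 15.3% and 3.17% higher). Median log2 fold changes were 0.27 in Top3b26, 0.18 in Y332F and 0.11 in delRGG. Slbp, whose protein binds the histone stem-loop, stood at 170, 184 and 177 CPM in Top3b26, 147, 156 and 123 CPM in Y332F, 129, 130 and 149 CPM in delRGG and 127, 140 and 128 CPM in wild type. It rose in Top3b26 (0.43, SE 0.09, edgeR adjusted p = 0.00382), and its Y332F and delRGG libraries overlapped wild type. mute, a component of the nuclear body at the histone array, rose in Top3b26 (0.39, SE 0.08, edgeR adjusted p = 0.00305) and Y332F (0.25, SE 0.08, edgeR adjusted p = 0.0257). abo, described as a negative regulator of histone genes, also rose in Top3b26 (0.81, SE 0.17, edgeR adjusted p = 0.00333) and Y332F (0.61, SE 0.17, edgeR adjusted p = 0.0161).

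All 13 histone chaperone genes were tested, beside the same shares over all features. In Top3b26 8 rose and 0 fell, in Y332F 5 rose and 0 fell, and in delRGG 1 rose and 0 fell, with medians of 0.35, 0.30 and 0.18 on the log2 scale. Caf1-105, a subunit of the chromatin assembly factor that loads histones at forks, stood at 130, 132 and 126 CPM in Top3b26, 225, 238 and 196 CPM in Y332F, 210, 193 and 222 CPM in delRGG and 110, 124 and 118 CPM in wild type. It rose in Y332F (0.91, SE 0.08, edgeR adjusted p = 8.59e-05) and delRGG (0.83, SE 0.08, edgeR adjusted p = 0.000228), and differed by 0.14 in Top3b26 (SE 0.08, edgeR adjusted p = 0.16). Nlp, a nucleoplasmin-like chaperone, rose in Top3b26 (0.60, SE 0.10, edgeR adjusted p = 0.00169), and was not called in Y332F or delRGG.

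Of the 22 DNA replication and S phase genes, 15 rose and 1 fell in Top3b26, 10 rose and 1 fell in Y332F, and 2 rose and 0 fell in delRGG, with median log2 fold changes of 0.30, 0.25 and 0.18. The shares of all features called higher were 23.5% in Top3b26, 15.3% in Y332F and 3.17% in delRGG. PCNA, the sliding clamp of the replication fork, stood at 209, 212 and 222 CPM in Top3b26, 156, 172 and 171 CPM in Y332F, 134, 142 and 164 CPM in delRGG and 117, 126 and 118 CPM in wild type. It rose in Top3b26 (0.84, SE 0.08, edgeR adjusted p = 4.82e-05) and Y332F (0.47, SE 0.08, edgeR adjusted p = 0.0027), and in delRGG the difference was 0.29 (SE 0.08, edgeR adjusted p = 0.0537). dup, which encodes the licensing factor Cdt1, and fzr, an activator of the anaphase-promoting complex, rose in all 3 mutants, by 0.25 to 0.34 for dup and 0.26 to 0.44 for fzr. PolA1, the catalytic subunit of DNA polymerase alpha, went the other way: it fell by 0.69 in Top3b26 (SE 0.10, edgeR adjusted p = 0.0007) and by 0.67 in Y332F (SE 0.10, edgeR adjusted p = 0.00147), and differed by 0.11 in delRGG (edgeR adjusted p = 0.47).

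**Figure D5:**
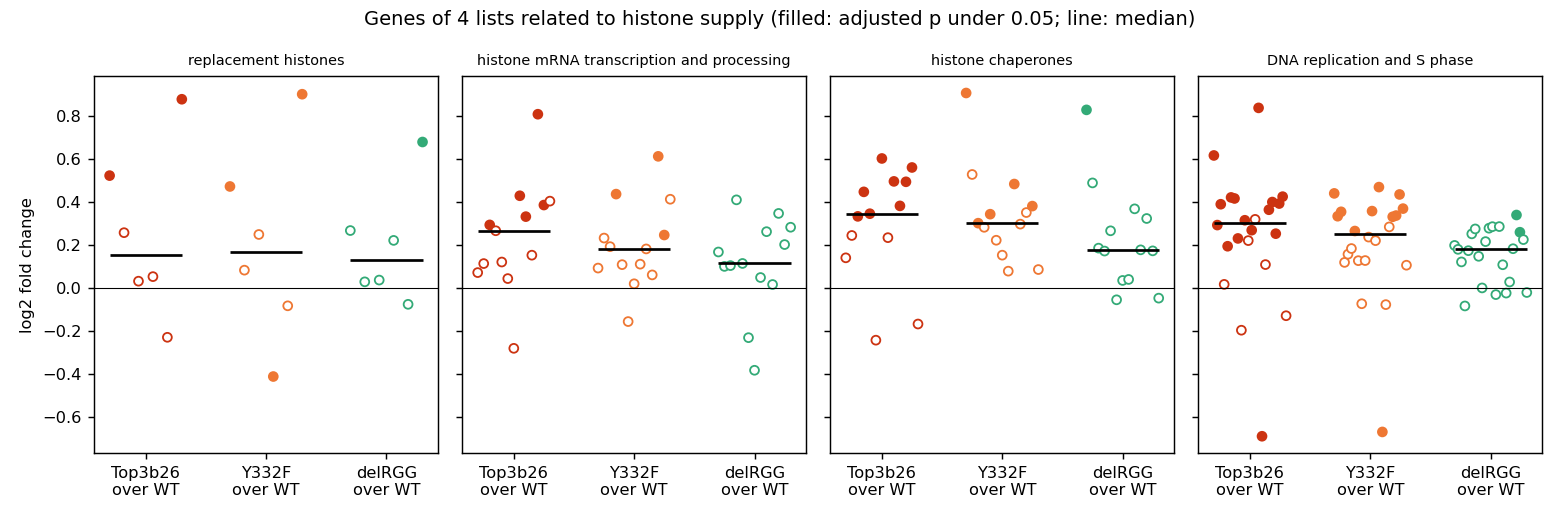
Log2 fold change of each tested gene (points) of 4 lists in each mutant against wild type; filled points passed an adjusted p of 0.05, and lines are medians. Medians lie above 0 in all panels, most points that pass are above 0, and PolA1 at -0.69 and -0.67 is the lowest point of the replication list in Top3b26 and Y332F.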

How the data were processed

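Total RNA of 12 embryo samples was analysed; 9 RNA immunoprecipitation samples belong to a table that lists no member and were not used here. The table holds counts as the authors deposited them, whole and not normalized, for genes and transposable element copies. Per the submitters' processing notes, HISAT2, featureCounts and DESeq2 were among the tools; build, annotation, strand setting and multiple mapping are not given in the sources used here. A Lexogen CORALL kit was used for the libraries, per the labels' protocols. Whether RNA was selected by poly(A) tail before this kit was not examined here. Counts of histone mRNA without such a tail may depend on it. Symbols came from a FlyBase table and gene order from a RefSeq table of Release 6 plus ISO1 MT; no sequence was available for printing.

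edgeR 4.0.16 in R 4.3.3 was run on all features passing filterByExpr (minimum count 10), with TMM factors, the quasi-likelihood test, all 12 samples and genotype as the sole factor. Benjamini-Hochberg adjustment ran over all 10238 features, or over 10226 with copies summed by type; calls had an adjusted p under 0.05. The SE is the log2 fold change divided by the root of the F statistic. Alternatives were DESeq2 1.42.0, RLE and total-count normalization, no filter, only the compared genotypes in the fit, sums of filtered copies, leaving out single replicates, and a replicate block. The members, lists and tests were chosen with earlier results of these data known. Named genes were the 3 copies of each type with the highest mean, the called copy with the largest rise and fall per type, all replacement histones, Slbp, and list genes called in all 3 mutants or with the 2 smallest adjusted p; copies and early markers outside this rule were named after their values were seen. The edgeR test was tried on simulated data with 200 changed features, fewer than were called in Top3b26 or Y332F. That run does not show how the test behaves when so many features change. Figures used matplotlib 3.10.9.

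Replicate numbers come from the titles, which do not say that they mark a shared collection. Deviations from the group means correlated at 0.25, 0.49 and 0.12 for same-numbered Y332F and Top3b26 samples, the one comparison in which every pair exceeded 0.1.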

Additional observations from a re-analysis of the deposited data

How the results depend on the processing

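The rises of the His1 and His2A sums in Top3b26 and Y332F kept their direction and stayed called under all alternatives run. Total-count normalization moved the median log2 fold change of all features to -0.13 in Top3b26 and -0.12 in Y332F against wild type; His1 and His2A sums stayed positive there. Where no reason is named, the cause was not tested.

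DESeq2 called 6 of the 16 copies in Y332F and 4 in delRGG against wild type, 2 in Y332F over Top3b26 and 2 in delRGG over Y332F, where it called 49.6%, 11.2%, 10.4% and 8.52% of all features. It also called the His2B sum in Y332F (0.98) and delRGG (1.40) against wild type, and the His4 sum in delRGG over wild type (-1.53) and over Top3b26 (-1.32). Without a filter, 6 of 55 copies tested were called in Y332F against wild type, where 24.5% of 18485 features were, the His2B sum was called in Y332F (1.08) and delRGG (1.52), and that of Top3b26 was 0.024, reversed but not called. With the compared genotypes alone, which fits fewer samples, 1 copy was called in delRGG over wild type, 2 in Y332F over Top3b26 and 1 in delRGG over Top3b26, where 0.736%, 11.4% and 14.7% of all features were. The His2B sum was then called in Y332F over wild type (1.01), while calls were lost for His1 in delRGG over wild type (1.28) and for His2A (-0.66) and His2B (1.49) in delRGG over Top3b26. Total-count normalization left 0 copies called in Y332F over Top3b26. With the replicate block, the His4 sum in delRGG over Top3b26 was called (-1.37); the block changed which copies were called but no count by more than 1.5 times, and no other sum's call. At least 1 correlation of same-numbered samples was below 0.1 in each comparison other than Y332F over Top3b26. No correlations of unlike-numbered samples were set beside them, so they cannot decide whether samples were paired.

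Leaving out 1 replicate in turn, copies called ran from 2 to 5 in Top3b26, 2 to 4 in Y332F and 2 to 3 in delRGG against wild type, 0 to 1 in Y332F over Top3b26, 1 to 4 in delRGG over Top3b26 and 0 to 1 in delRGG over Y332F. Sums against wild type ran from -0.49 to 0.38 for His2B and -0.53 to 0.44 for His4 in Top3b26, 0.76 to 1.40 for His2B and -1.13 to -0.18 for His4 in Y332F, and in delRGG from 0.99 to 1.51 for His1, 0.34 to 0.71 for His2A, 0.94 to 1.84 for His2B and -1.86 to -0.89 for His4. In delRGG over Top3b26 they ran from -0.15 to 0.28 for His1, -0.87 to -0.50 for His2A and 0.99 to 1.95 for His2B. In delRGG over Y332F they ran from -0.32 to 0.10 for His1 and -0.028 to 0.66 for His2B. The His3 sum did not pass the filter, so its alternatives were not run. Copies with few counts limit every statement on His3 and His4.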

Other observations

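The histone pseudogenes of the array, 8 in number, included 3 that passed the filter on low counts. His-Psi:CR33867, next to His2A:CG33865, had 832, 538 and 610 counts in Top3b26, 542, 721 and 668 in Y332F, 550, 804 and 689 in delRGG, and 461, 525 and 645 in wild type. Its log2 differences from wild type were 0.20 in Top3b26 (SE 0.19, edgeR adjusted p = 0.383), 0.20 in Y332F (SE 0.19, edgeR adjusted p = 0.409) and 0.19 in delRGG (SE 0.19, edgeR adjusted p = 0.528), and neither of the other two was called. The U7 small nuclear RNA gene, snRNA:U7, did not pass the filter. It had 5, 7 and 6 counts in Top3b26, 2, 7 and 8 in Y332F, 38, 7 and 46 in delRGG, and 3, 2 and 2 in wild type, so replicates 1 and 3 of delRGG stood above all other libraries.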
